A study of Mus musculus with 24 samples.

Results

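Lysosome genes were followed in mouse bone marrow-derived macrophages exposed to LPS, to 4-hydroxyestrone (4-OHE1) or to both. The set was a list of 36 gene symbols covering membrane proteins, hydrolases, subunits of the proton pump and regulators of the lysosome. A gene was taken when its symbol in the annotation of the deposited expression tables matched the list, and all 36 were found among the 24537 genes of each table, with the same transcript at both times.

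The lysosome is the acidic compartment in which macrophages break down engulfed particles, membranes and worn organelles. The vacuolar proton pump (V-ATPase) acidifies it, and most of its hydrolases work at low pH. Many lysosome genes are targets of the related transcription factors TFEB and TFE3, which enter the nucleus when the kinase complex mTORC1 is inactive and bind a promoter element, the CLEAR element, built around an E-box.

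Bone marrow of 8-week-old female C57BL/6J mice was grown into macrophages with 20 ng/mL of the growth factor M-CSF and replated on day 7. The 8 groups were vehicle (control), LPS, 4-OHE1 and LPS plus 4-OHE1 for 6 h, and the same 4 treatments for 24 h, each with 3 mRNA libraries. LPS is a bacterial cell-wall component that activates macrophages through TLR4, and 4-OHE1 is a catechol metabolite of the estrogen estrone. Every group, control included, carried the same strain, sex and M-CSF culture, and no label ties a library to a separate animal or culture, so p-values measure only the spread between these libraries. The labels give the final LPS dose as 100 ng/mL and that of 4-OHE1 as 5 mM, each after a 1000-fold dilution of a stock at the very same concentration, so the doses are uncertain.

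Depth ran from 8.13e6 to 13.34e6 reads, with 83.0% to 87.2% of a library counted in genes. Levels are FPKM divided by median-of-ratios factors, called scaled FPKM below. Differences are log2 differences of scaled FPKM + 0.5, given ± SE with limma's Benjamini-Hochberg adjusted p. Rose, fell, higher and lower are used of genes at an adjusted p under 0.05, and of libraries where values are listed. The factors matter most for LPS. Without scaling the median gene stood at -0.61 on the log2 scale in LPS against control at 6 h and -0.31 at 24 h, against -0.21 and 0.053 for 4-OHE1. All 8 macrophage markers were detected in each group, but their levels moved with treatment. With LPS at 24 h Mrc1 was at 0.817–1.146 FPKM, against 34.4–39.0 FPKM in control, and Adgre1 at 1553–1610 FPKM, against 225–233 FPKM. None of the 5 lymphocyte and 4 erythroid markers reached 1 FPKM in any library, 2 of 8 neutrophil markers did (S100a8 and Camp), and Ly6g and S100a9 were at most 0.124 and 0.44 FPKM at 24 h. The summed neutrophil markers were 2.74–3.10 FPKM in control, 47.2–64.2 FPKM with LPS and 82.3–112 FPKM with both at 24 h. The summed 4 dendritic cell markers were 0.034–0.214 FPKM in control and 5.29–6.46 FPKM with LPS at 24 h. Nearly all of that LPS sum was Ccr7 (4.905–6.174 FPKM), and Flt3, Zbtb46 and Xcr1 were at most 0.031, 0.15 and 0.357 FPKM there. The 4 stromal markers summed to 2.0 to 5.29 FPKM in every library. The part of these cells in the results was not tested. In such bulk libraries, fewer cells of a type and less RNA per cell cannot be told apart.

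RefSeq promoter windows of build GRCm38.p6, from 250 bases before to 50 bases after the gene start, were at hand for 32 of the 36 genes. They were searched for the E-box CACGTG and for the longer TCACGTGA, which holds the E-box within it. Both read the same on either strand, so 1 search covers both strands. The E-box was in 7 of the 32 windows (Ctsa, Ctsd, Ctsl, Gla, Glb1, Lamp1 and Mcoln1), against 7.15% of 32851 windows of all genes, and TCACGTGA was in 4 (Ctsa, Ctsd, Gla and Mcoln1), against 0.974%. The promoters of 3 genes with both motifs that rose with 4-OHE1 at 6 h, and of 2 genes that rose with LPS and held no match, are printed with each E-box in capitals, 5′ to 3′ on the gene's strand. Gla lies on the minus strand at chrX:134600956-134601255, Mcoln1 on the plus strand at chr8:3500269-3500568, Ctsa on the plus strand at chr2:164833523-164833822, Acp5 on the minus strand at chr9:22130549-22130848 and Ctsc on the plus strand at chr7:88277835-88278134.
Gla: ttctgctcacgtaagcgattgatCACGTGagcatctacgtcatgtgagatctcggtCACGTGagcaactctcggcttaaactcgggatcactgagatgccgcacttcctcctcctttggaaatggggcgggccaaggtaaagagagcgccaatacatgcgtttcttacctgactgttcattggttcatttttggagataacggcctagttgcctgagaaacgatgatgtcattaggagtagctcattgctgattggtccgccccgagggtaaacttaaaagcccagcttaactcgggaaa
Mcoln1: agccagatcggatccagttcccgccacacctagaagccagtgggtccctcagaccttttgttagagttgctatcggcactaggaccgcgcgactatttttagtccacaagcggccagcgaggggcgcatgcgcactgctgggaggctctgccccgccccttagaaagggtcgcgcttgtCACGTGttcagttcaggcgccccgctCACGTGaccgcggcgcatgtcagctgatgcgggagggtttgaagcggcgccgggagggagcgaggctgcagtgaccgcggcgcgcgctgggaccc
Ctsa: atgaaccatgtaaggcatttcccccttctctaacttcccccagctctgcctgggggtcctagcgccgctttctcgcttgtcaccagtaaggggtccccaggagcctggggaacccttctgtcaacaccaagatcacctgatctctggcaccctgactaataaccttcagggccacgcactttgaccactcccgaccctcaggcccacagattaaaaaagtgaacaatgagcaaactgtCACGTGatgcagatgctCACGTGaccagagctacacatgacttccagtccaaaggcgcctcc
Acp5: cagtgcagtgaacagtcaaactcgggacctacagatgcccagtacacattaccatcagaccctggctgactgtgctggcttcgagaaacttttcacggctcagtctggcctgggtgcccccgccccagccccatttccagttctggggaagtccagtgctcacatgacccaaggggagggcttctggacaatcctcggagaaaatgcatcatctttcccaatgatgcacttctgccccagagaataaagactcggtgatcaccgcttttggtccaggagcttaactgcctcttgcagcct
Ctsc: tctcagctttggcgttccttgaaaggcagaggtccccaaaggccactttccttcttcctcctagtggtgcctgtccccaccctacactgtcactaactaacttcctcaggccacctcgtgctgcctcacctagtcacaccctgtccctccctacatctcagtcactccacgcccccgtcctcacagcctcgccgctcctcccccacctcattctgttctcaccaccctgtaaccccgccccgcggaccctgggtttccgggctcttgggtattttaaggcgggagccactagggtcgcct
Gla, Mcoln1 and Ctsa each held 2 E-boxes in the window. A match is a string of letters and not a measured binding site.

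The genes spanned a wide range of levels. Ctsd, the main aspartic protease of the lysosome, was the most abundant, with a mean of 3522 scaled FPKM over the 24 libraries, followed by Ctss at 1819 and Ctsb at 1764, both cysteine proteases, and by Psap, the precursor of the saposins, at 1442. The lowest were Tfeb at 11.7 and Acp5, the tartrate-resistant acid phosphatase, at 7.05. The order changed with the group, and with LPS at 24 h Acp5 (mean 32.6) stood above Tfeb (7.48) and Atp6v0d2 (3.36) was the lowest, while Ctsz (2063) exceeded Ctss (1634) and Ctsb (1430.1). Ctss and Ctsb did not stand apart in the 24 h control libraries, at 1871, 1865 and 1971 against 1924, 1941 and 2003 scaled FPKM. FPKM is a value per length, so these levels can be set against each other.

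Together the 36 genes held a smaller share of the summed FPKM in every LPS library than in every control library. This share needs no scaling between libraries. It was 4.94% ± 0.046 (SD, n = 3) in control and 3.18% ± 0.027 with LPS at 6 h, and 5.53% ± 0.059 and 3.10% ± 0.036 at 24 h. With 4-OHE1 it was 5.09% ± 0.035 at 6 h and 4.57% ± 0.058 at 24 h, and with both 4.44% ± 0.050 and 3.91% ± 0.079. A share also falls when other genes take more of the total. Without scaling the median log2 difference with LPS at 6 h was -0.61 for the 36 genes and -0.61 for all genes, so the set moved like the median gene. At 24 h these medians were -0.52 and -0.31. The 5 most abundant genes (Ctsd, Ctss, Ctsb, Psap and Cd68) made up 52.8% to 64.5% of the summed FPKM of the 36.

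**Figure D1:**
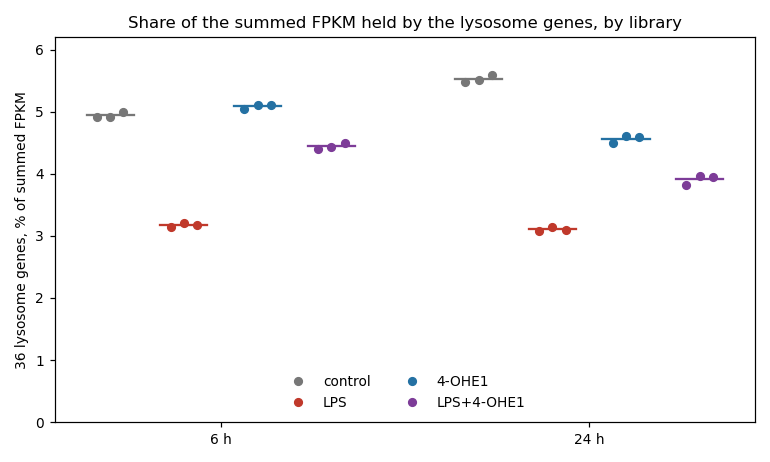
Share of each library's summed FPKM held by the 36 lysosome genes (y axis, percent), by time and treatment, with 1 point per library and a bar at the group mean. The LPS libraries lie between 3.07% and 3.20% at both times, below all control libraries, which lie between 4.92% and 5.59%.

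Of the regulators, encoded on build mm10 at chr17:47785744-47792416 (Tfeb) and chrX:7764041-7775202 (Tfe3), Tfeb fell and Tfe3 rose with LPS at both times. Tfeb stood at 17.6, 15.9 and 19.2 scaled FPKM in the 6 h control libraries, 6.53, 6.54 and 5.92 with LPS, 11.4, 12.5 and 12.2 with 4-OHE1 and 8.16, 9.96 and 10.4 with both. No LPS or 4-OHE1 library reached the lowest control, and the log2 difference was -1.40 ± 0.097 (adjusted p = 3.72e-08) for LPS and -0.52 ± 0.097 (adjusted p = 0.000509) for 4-OHE1. At 24 h Tfeb was at 15.6, 16.9 and 14.5 in control, 7.62, 7.91 and 6.92 with LPS, 13.9, 14.7 and 14.1 with 4-OHE1 and 10.6, 10.3 and 11.4 with both. LPS still lay below every control library, at a log2 difference of -1.01 ± 0.073 (adjusted p = 6.42e-08), while 4-OHE1 alone overlapped control (-0.13, adjusted p = 0.158). With LPS present, 4-OHE1 raised Tfeb above LPS alone, by a log2 difference of 0.54 ± 0.097 (SE) at 6 h and 0.50 ± 0.073 at 24 h.
Tfe3 was at 39.2, 35.5 and 36.7 scaled FPKM in control, 67.8, 73.3 and 67.6 with LPS, 59.5, 56.1 and 61.2 with 4-OHE1 and 54.0, 53.3 and 53.8 with both at 6 h. All treated libraries were above all controls, with log2 differences of 0.90 ± 0.057 (adjusted p = 1.44e-08) for LPS and 0.66 ± 0.057 (adjusted p = 6.86e-07) for 4-OHE1. The combination was below LPS alone (-0.37 at 6 h and -0.24 at 24 h), although without scaling the 24 h value was -0.043 and was not called. At 24 h Tfe3 was at 36.5, 36.4 and 33.9 in control, 60.4, 62.1 and 54.8 with LPS and 39.1, 38.4 and 37.9 with 4-OHE1, and both treatments lay above all controls. The LPS difference was 0.72 ± 0.058 (adjusted p = 1.89e-07), and that of 4-OHE1 was 0.11 (adjusted p = 0.129), or 0.17 without scaling, which was called.

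The V-ATPase members rose together with 4-OHE1 at 6 h and parted under LPS. Atp6v1h, the H subunit of the peripheral V1 sector, was at 54.1, 59.7 and 55.9 scaled FPKM in control, 96.8, 100.2 and 108 with LPS, 174, 187 and 187 with 4-OHE1 and 244, 197 and 158 with both at 6 h. The 4 groups kept apart except 4-OHE1 and both, and the log2 difference was 1.68 ± 0.12 (adjusted p = 1.06e-07) for 4-OHE1. Atp6v0d2, an isoform of the d subunit of the membrane V0 sector that is abundant in osteoclasts and macrophages, was at 28.2, 31 and 31.4 in control, 13.8, 14.7 and 14.1 with LPS, 77.7, 82.8 and 87.5 with 4-OHE1 and 49, 39.5 and 39.3 with both. No groups overlapped, LPS lay lowest and 4-OHE1 highest, at log2 differences from control of -1.06 ± 0.085 (adjusted p = 1.5e-07) and 1.44 ± 0.085 (adjusted p = 2.25e-08). After 24 h it was at 18.9, 22.4 and 20.5 in control, 4.07, 2.71 and 3.31 with LPS, 20.5, 18.8 and 20.7 with 4-OHE1 and 10.8, 13.1 and 15.1 with both. LPS was again lowest (-2.46 ± 0.13, adjusted p = 3.89e-09), 4-OHE1 alone overlapped control (-0.041, adjusted p = 0.827), and the combination stood between LPS and control, 1.81 ± 0.13 above LPS.
On build mm10 Atp6v1h lies at chr1:5083086-5162549, Atp6v0d2 at chr4:19876838-19922566 and Tcirg1 at chr19:3896050-3907133.
Tcirg1, the a3 subunit of the V0 sector, was at 124, 117 and 127 scaled FPKM in control, 326, 348 and 336 with LPS, 262, 264 and 267 with 4-OHE1 and 343, 394 and 325 with both at 6 h. Each treatment lay above all controls, by 1.45 for LPS and 1.10 for 4-OHE1, and the combination overlapped LPS alone (0.069, or 0.28 without scaling, which was called). The 4-OHE1 difference was still 0.98 ± 0.065 (adjusted p = 1.56e-07) at 24 h, when Tcirg1 was at 131, 135 and 139 in control and 259, 287 and 252 with 4-OHE1, and the change of that difference between the times was -0.13 (adjusted p = 0.268). For Atp6v1h and Atp6v0d2 the 4-OHE1 difference shrank from 6 h to 24 h, by log2 values of -1.23 and -1.48.

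Of 15 other V-ATPase subunit and accessory genes, 13 were higher and none lower with 4-OHE1 at 6 h, with a median log2 difference of 0.49, where 29.3% of all genes tested were called higher and 31.1% lower. Without scaling 8 were higher and 1 lower, against 20.9% and 44%. Atp6v1c1 and Atp6v1a, subunits of the V1 sector, led with log2 differences of 0.90 and 0.81. At 24 h 4 of the 15 were higher and 5 lower, near the shares of all genes (25.5% and 26.7%), with Atp6v0b at 0.63 and Atp6v0a2 at 0.48. With LPS at 6 h 10 were higher and 2 lower when scaled, against 36.2% and 35.2% of all genes, but 1 higher and 9 lower without scaling, against 16.1% and 68.1%. Atp6v1e1 rose with LPS under both scalings, by log2 values of 1.72 at 6 h and 1.54 at 24 h.

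**Figure D2:**
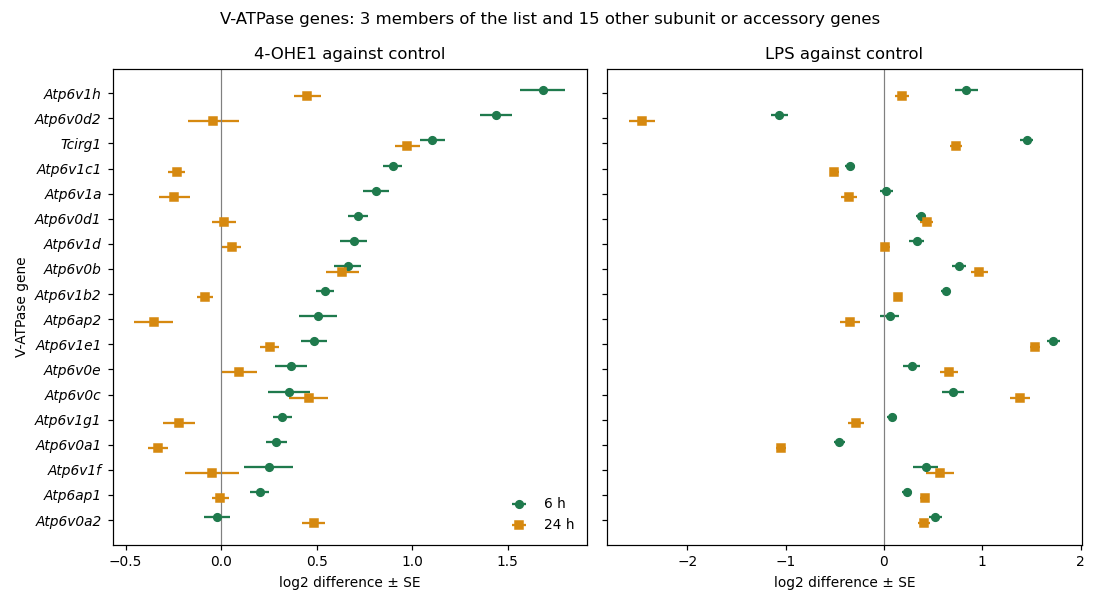
Log2 differences from control of 18 V-ATPase genes for 4-OHE1 (left) and LPS (right), with circles for 6 h, squares for 24 h and bars of ± 1 SE. With 4-OHE1 at 6 h 17 of the 18 points lie right of 0, and at 24 h Tcirg1 lies farthest right at 0.98.

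Among the proteases, Ctsc and Ctsz rose with LPS, and 4-OHE1 lowered them in LPS-treated cells, except that for Ctsz at 6 h the value was -0.17 with scaling and 0.05 without it. Ctsc, dipeptidyl peptidase I, which activates granule serine proteases in other leukocytes, was at 10.6, 12 and 10.2 scaled FPKM in control, 62.9, 56.9 and 60.0 with LPS, 11.7, 11.6 and 12.6 with 4-OHE1 and 14.9, 14.6 and 12.9 with both at 6 h. The LPS libraries stood far above all others, at a log2 difference from control of 2.40 ± 0.078 (adjusted p = 2.64e-11), and the combination lay -2.05 ± 0.078 (adjusted p = 2.06e-10) relative to LPS. At 24 h Ctsc was at 12, 12.3 and 11.2 in control, 61.8, 66.4 and 66.8 with LPS, 7.59, 6.65 and 7.25 with 4-OHE1 and 7.48, 7.59 and 6.80 with both. The combination now overlapped 4-OHE1 alone and lay below every control library, with log2 differences of 2.41 ± 0.068 (adjusted p = 9.81e-12) for LPS, -0.69 ± 0.068 (adjusted p = 4.51e-06) for 4-OHE1 and -3.07 ± 0.068 (adjusted p = 2.20e-11) for the combination against LPS. The neutrophil marker S100a8 was at 42.8–60.2 FPKM with LPS and at 81.4–112 FPKM with both at 24 h. The other neutrophil marker detected, Camp, was at 3.83–6.81 FPKM with LPS and 0.305–0.679 FPKM with both at 24 h, at 0.62–1.22 FPKM with LPS at 6 h, and at 0 in the remaining groups. Camp was thus highest with LPS, as Ctsc was, and S100a8 was highest with both at 24 h.
Ctsz, a carboxypeptidase, was at 453, 425 and 479 scaled FPKM in control and 1073, 1081 and 1051 with LPS at 6 h, and at 506, 494 and 537 and 2133, 2126 and 1929.8 at 24 h. LPS libraries lay above all controls at each time, by 1.24 ± 0.06 (adjusted p = 9.76e-10) and 2.01 ± 0.078 (adjusted p = 1.68e-10). With both at 24 h Ctsz was at 1423, 1436 and 1258, below every LPS library (-0.59 ± 0.078, adjusted p = 4.70e-05) and above every control. Nelfcd on the opposite strand overlaps Ctsz and reached 18.4 FPKM at most, and the strand setting of the counting is not given in the sources used here.
Ctsk, a collagen-degrading protease, was at 11.5, 11.7 and 13.3 scaled FPKM in control, 7.60, 9.63 and 9.63 with LPS, 12.6, 11.1 and 11.2 with 4-OHE1 and 23.0, 25.4 and 21.8 with both at 24 h. Only the combination stood above control, and it lay above every LPS library by a log2 difference of 1.34 ± 0.098 (adjusted p = 2.27e-07). Ctsl, another cysteine protease, was at 378, 393 and 377 in control and 553, 573 and 555 with 4-OHE1 at 6 h, and at 246, 241 and 250.3 and 328, 343 and 329 at 24 h. The 4-OHE1 libraries were higher at both times, by 0.55 and 0.44 ± 0.053 (adjusted p = 2.27e-05).
Ctsd, whose protease starts the breakdown of many lysosomal proteins, was at 3229, 3052 and 3396 scaled FPKM in control, 2820.5, 2858 and 2814 with LPS, 4319.6, 4333 and 4189.7 with 4-OHE1 and 3851, 4127 and 4031 with both at 6 h. The 4-OHE1 libraries were all above control and the LPS libraries all below it, at log2 differences of 0.41 ± 0.052 (adjusted p = 2.35e-05) and -0.19 ± 0.052 (adjusted p = 0.00631). Without a filter on low genes the LPS difference was the same and not called (adjusted p = 0.15). At 24 h the LPS difference was -0.47 ± 0.067 (adjusted p = 4.13e-05), and 4-OHE1 stood at -0.10 (adjusted p = 0.212). Of the 9 proteases, 7 were higher and none lower with 4-OHE1 at 6 h, where 29.3% of all genes were higher and 31.1% lower (6 and 1 without scaling, against 20.9% and 44%). At 24 h 1 was higher (Ctsl) and 4 were lower (Ctsc, Ctsb, Ctss and Tpp1), against 25.5% and 26.7% (2 and 4 without scaling, against 29.9% and 23.1%).

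The acid phosphatases Acp5 and Acp2 rose with LPS and were lower in the combination than with LPS alone. Acp5 was at 1.09, 0.845 and 2.11 scaled FPKM in control, 11.5, 10.8 and 10.7 with LPS, 1.96, 1.31 and 1.08 with 4-OHE1 and 2.71, 3.35 and 2.65 with both at 6 h. At 24 h it was at 1.20, 1.16 and 1.17 in control, 32.6, 34.0 and 31.2 with LPS, 1.5, 2.09 and 2.10 with 4-OHE1 and 4.93, 3.57 and 3.67 with both. The LPS libraries stood apart at both times, and no combination library came near them. The log2 difference for LPS was 2.69 ± 0.22 (adjusted p = 1.89e-07) at 6 h and 4.31 ± 0.12 (adjusted p = 1.13e-11) at 24 h, the latter a 19.8-fold difference of scaled FPKM + 0.5, which understates the change of so low a gene. The combination against LPS was -1.76 ± 0.22 (adjusted p = 1.39e-05) at 6 h and -2.87 ± 0.12 (adjusted p = 2.07e-09) at 24 h. 4-OHE1 alone raised Acp5 slightly at 24 h (0.51 ± 0.12, adjusted p = 0.00428), a call that the authors' deposited table did not make (log2 fold change 0.68, adjusted p = 0.127).
Acp2, lysosomal acid phosphatase, was at 25.5, 27.1 and 25.5 scaled FPKM in control, 45.4, 48.2 and 46.6 with LPS, 18.1, 19.3 and 17.8 with 4-OHE1 and 19.8, 19.4 and 21.5 with both at 6 h. After 24 h it was at 25.2, 27.2 and 26.4 in control, 116, 119 and 116 with LPS, 20.5, 20.1 and 21.6 with 4-OHE1 and 33.2, 32.8 and 27.8 with both. LPS was above and 4-OHE1 below all controls at both times. LPS moved it by 0.83 ± 0.06 (adjusted p = 5.16e-08) at 6 h, or 0.16 without scaling, which was not called, and by 2.13 ± 0.066 (adjusted p = 2.24e-11) at 24 h, 4-OHE1 by -0.49 and -0.33, and the combination against LPS by -1.19 and -1.89. Ddb2 on the opposite strand overlaps Acp2 and reached 39.1 FPKM at most.

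Of the genes for lipid handling, Lipa fell with LPS, most at 24 h, and was higher in the combination than with LPS alone at both times. Lipa (mm10, chr19:34492316-34527474), the acid lipase that frees cholesterol and fatty acids from lipoprotein lipids, was at 665, 679 and 668 scaled FPKM in control, 475, 498 and 509.9 with LPS, 984, 996 and 1016 with 4-OHE1 and 1062, 907 and 805 with both at 6 h. At 24 h it was at 611, 616 and 602 in control, 146, 134 and 157 with LPS, 618, 547 and 636 with 4-OHE1 and 536, 532 and 526 with both. LPS libraries were below all others at both times, and the combination lay above every control library at 6 h and below every control library at 24 h. LPS moved Lipa by -0.44 ± 0.079 (adjusted p = 0.000263) at 6 h and -2.07 ± 0.066 (adjusted p = 2.69e-11) at 24 h, and the combination against LPS was 0.89 ± 0.079 and 1.87 ± 0.066. The 24 h combination difference was larger than the effect of 4-OHE1 alone by 1.89 ± 0.093 (adjusted p = 2.18e-08).
Npc2, which binds cholesterol inside the lysosome, was at 162, 149 and 162 scaled FPKM in control and 326, 308 and 316 with LPS at 6 h, and at 175, 182 and 181 and 331, 332 and 313 at 24 h. LPS lay above control at both times, by 1.00 ± 0.051 (adjusted p = 1.61e-09) and 0.86 ± 0.043 (adjusted p = 1.86e-09). Asah1, acid ceramidase, was at 128, 135 and 132 in control, 117, 113 and 133 with LPS, 87.4, 73.6 and 87.8 with 4-OHE1 and 64.6, 59.4 and 56.7 with both at 24 h. With 4-OHE1 alone Asah1 stood at -0.67 ± 0.08 (adjusted p = 2.24e-05) from control. It lay lowest in the combination, at -1.0 ± 0.08 (adjusted p = 5.02e-07) from LPS alone. Ppt1, which removes fatty acids from proteins, followed at 24 h. It stood at -0.53 for 4-OHE1 alone against control and -0.76 for the combination against LPS. Cap1 on the opposite strand overlaps Ppt1 and reached 480 FPKM. Smpd1, acid sphingomyelinase, was the 1 gene called lower with LPS at 6 h (-0.21) and higher at 24 h (0.19, or -0.15 without scaling, which was not called). The authors' deposited tables called neither, with log2 fold changes of -0.21 (adjusted p = 0.124) at 6 h and 0.21 (adjusted p = 0.114) at 24 h. With 4-OHE1 at 24 h Smpd1 rose by 0.37 ± 0.071 (adjusted p = 0.000882).

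Among the glycosidases, Gla moved most. Gla, the alpha-galactosidase that clears globotriaosylceramide, was at 54.9, 55.4 and 57.4 scaled FPKM in control, 40.2, 42.7 and 43.9 with LPS, 146, 169 and 160.1 with 4-OHE1 and 155, 149 and 149 with both at 6 h. After 24 h it was at 63.9, 63.5 and 65.0 in control, 27.4, 28.1 and 28.5 with LPS, 55.4, 55.7 and 58.5 with 4-OHE1 and 51.3, 57.2 and 62.0 with both. LPS libraries were lowest at both times, and 4-OHE1 went from far above control at 6 h to just below it at 24 h. The log2 differences from control were 1.49 ± 0.058 (adjusted p = 5.27e-10) for 4-OHE1 at 6 h, -0.18 ± 0.062 (adjusted p = 0.0267) at 24 h, or -0.12 without scaling, which was not called, and -1.18 ± 0.062 (adjusted p = 2.74e-09) for LPS at 24 h. The fall of the 4-OHE1 difference between the times was -1.67 ± 0.083 (adjusted p = 3.03e-12), the most negative of the 36 genes, and the combination exceeded LPS by 1.83 and 1.00.
Man2b1, alpha-mannosidase, was not called with LPS at 6 h (-0.034, adjusted p = 0.551), although without scaling it was called lower (-0.72), and it fell at 24 h, from 141, 145 and 143 scaled FPKM to 80.4, 82.5 and 75.8 (-0.84 ± 0.043, adjusted p = 2.24e-09). Hexa, the alpha subunit of beta-hexosaminidase, rose with 4-OHE1 at 6 h (0.47) and was lower at 24 h (-0.48), a change between the times of -0.95 ± 0.082 (adjusted p = 8.50e-09). Neu1, a sialidase, rose with LPS at 24 h (0.64), where its 6 h difference was -0.15 (adjusted p = 0.0603), or -0.81 without scaling, which was called lower. At 24 h, LPS lowered 5 of the 6 glycosidases, under both scalings, and raised Neu1, where 33.8% of all genes were lower when scaled and 53.5% when not.

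Among the membrane proteins, Scarb2 fell with 4-OHE1 at 6 h and with LPS at both times. It encodes LIMP-2, which carries glucocerebrosidase to the lysosome, and was at 35.7, 38.6 and 37.2 scaled FPKM in control, 31.4, 33.3 and 32.3 with LPS, 20.3, 20.3 and 21.1 with 4-OHE1 and 25.9, 22.7 and 22.0 with both at 6 h. At 24 h it was at 38.1, 39.7 and 38.6 in control, 18.3, 19.9 and 19.8 with LPS, 37.1, 34.1 and 37.3 with 4-OHE1 and 24.6, 24.7 and 27.0 with both. At 6 h 4-OHE1 gave the lowest libraries and at 24 h LPS did. The log2 difference for 4-OHE1 was -0.84 ± 0.066 (adjusted p = 3.29e-07) at 6 h and -0.10 (adjusted p = 0.167) at 24 h, and for LPS -0.20 at 6 h and -0.99 ± 0.058 (adjusted p = 9.26e-09) at 24 h. It was thus one of 3 genes, with Smpd1 and Tfeb, whose 4-OHE1 difference was called higher at 24 h than at 6 h (0.73 ± 0.085, adjusted p = 4.66e-07).
Lamp1, a main glycoprotein of the lysosomal membrane, was at 754, 767 and 778 scaled FPKM in control, 756, 751 and 775 with LPS, 511, 513 and 537 with 4-OHE1 and 525, 539 and 506 with both at 24 h. Both groups with 4-OHE1 lay below all libraries without it, at -0.56 ± 0.045 (adjusted p = 7.23e-07) from control and -0.54 from LPS, whereas at 6 h Lamp1 had been higher with 4-OHE1 (0.28, or 0.092 without scaling, which was not called). Cd68, a macrophage lysosomal glycoprotein, had fallen with LPS at 24 h (-0.61) and with 4-OHE1 (-0.38), yet the combination was above LPS (0.42). Mcoln1, the TRPML1 cation channel, rose with 4-OHE1 by 0.54 at 6 h and 0.18 at 24 h. The authors' deposited table did not call Mcoln1 at 24 h (log2 fold change 0.198, adjusted p = 0.0623). Grn, the secreted and lysosomal protein progranulin, fell with 4-OHE1 at 24 h from 832, 852 and 809.7 to 527, 542 and 532 scaled FPKM (-0.64 ± 0.05, adjusted p = 5.99e-07), having stood at 0.054 (adjusted p = 0.383) at 6 h.

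**Figure D3:**
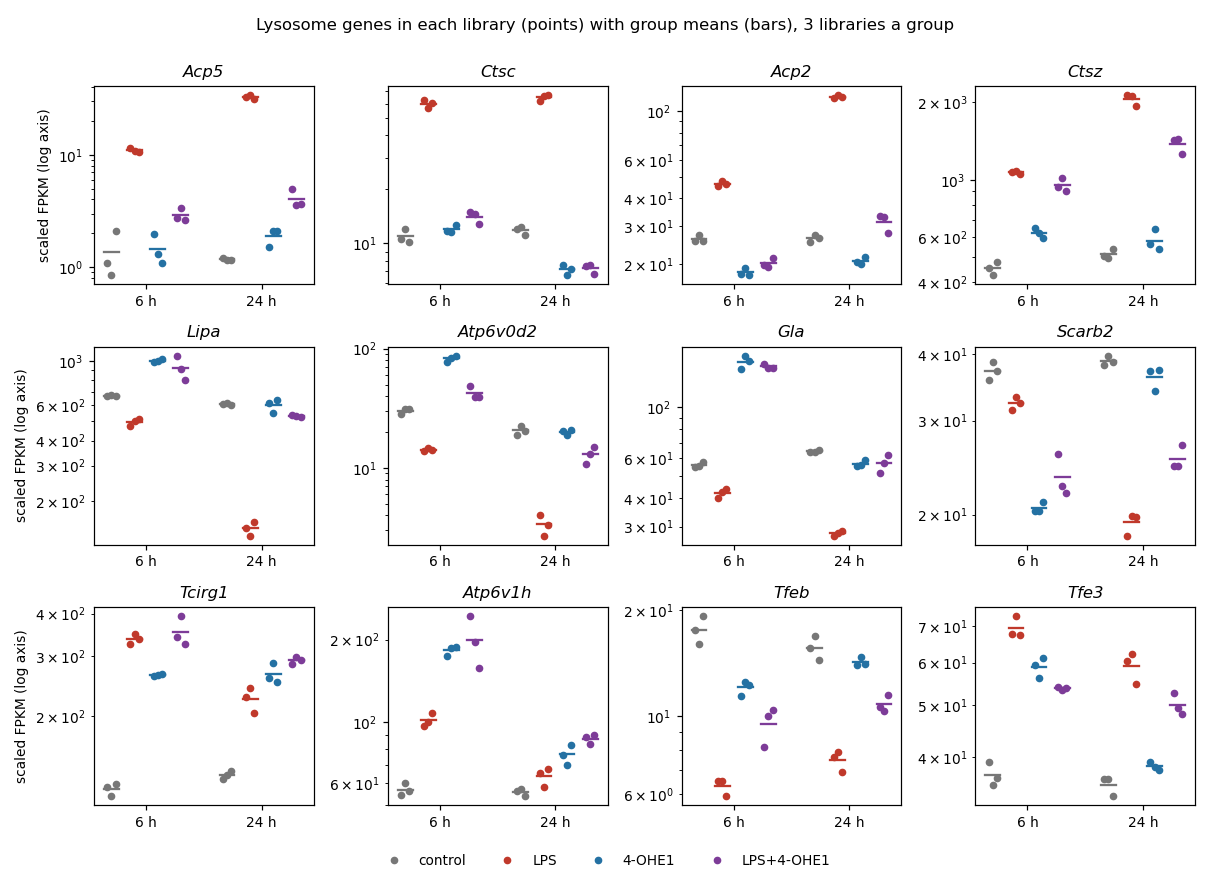
Scaled FPKM (log axis) of 12 lysosome genes in each library, by time and treatment, with 1 point per library and a bar at the mean of 3. The LPS libraries stand apart for Acp5, at 31.2 to 34.0 at 24 h, and for Lipa, at 134 to 157 at 24 h.

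Counted over the whole set with limma at a Benjamini-Hochberg adjusted p under 0.05, LPS moved the genes in both directions. At 6 h 15 of the 36 were higher and 12 lower, with a median log2 difference of 0.074, against 36.2% of 11098 genes called higher and 35.2% lower, with a median of 0.0095. Both of these 6 h counts were near the shares of all genes. Without scaling 6 were higher and 28 lower, against 16.1% and 68.1% of all genes. The 6 higher under both scalings were Acp5, Ctsc, Tcirg1, Ctsz, Npc2 and Tfe3, and 7 genes (Lamp1, Lamp2, Cd63, Ctsb, Ctss, Glb1 and Grn) were called higher when scaled and lower when not. At 24 h 11 were higher and 18 lower, with a median of -0.17, against 35% higher and 33.8% lower of 11185 genes. Without scaling it was 8 higher and 26 lower, against 19.9% and 53.5%, and Atp6v1h was the 1 gene called in opposite directions. Between the times, 8 genes were called higher at both, 11 lower at both, 3 (Ctsb, Ctss and Glb1) higher at 6 h and lower at 24 h, and Smpd1 the reverse. The authors' deposited tables called Smpd1 at neither time.

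With 4-OHE1 the genes were more often higher than lower at 6 h and more often lower than higher at 24 h. At 6 h 23 of the 36 were higher and 5 lower (Scarb2, Tfeb, Acp2, Ppt1 and Asah1), with a median log2 difference of 0.34, against 29.3% of all genes higher and 31.1% lower, with a median of -0.034. Without scaling 17 were higher and 10 lower, against 20.9% and 44%. At 24 h 8 were higher and 18 lower, with a median of -0.16, against 25.5% and 26.7% of all genes. Without scaling it was 10 higher and 17 lower, against 29.9% and 23.1%. Of the 23 genes higher at 6 h, 6 were higher at 24 h too (Atp6v1h, Cd63, Ctsl, Mcoln1, Neu1 and Tcirg1), 9 were lower (Cd68, Ctsb, Gla, Hexa, Lamp1, Lamp2, Npc2, Psap and Tpp1) and 8 were not called. Of those 6, the authors' deposited table did not call Mcoln1 at 24 h. The 4-OHE1 calls for Asah1 at 6 h and Cd63 at 24 h rest on single libraries. Asah1 at 6 h was -0.17 (adjusted p = 0.0998) without control replicate 2 and was also lost without control replicate 1 or 4-OHE1 replicate 1 or 2, and Cd63 at 24 h was 0.25 (adjusted p = 0.0781) without 4-OHE1 replicate 2 and was also lost without control replicate 1 or 2.
The difference between the times was tested in a fit of all 24 libraries. The 4-OHE1 difference was higher at 24 h for 3 of the 36 genes and lower for 26, with a median of -0.48, against 21.7% and 25.3% of 11220 genes. Without scaling it was higher for 4 and lower for 19, against 37% and 16.6%. The LPS difference was higher at 24 h for 6 genes, led by Acp5 (1.61), Acp2 (1.30) and Neu1 (0.79), and lower for 21, led by Lipa (-1.63) and Atp6v0d2 (-1.40), against 23.9% and 28.2% of all genes. Without scaling these counts turned to 13 higher and 11 lower, against 41.7% and 16.9%, although those 5 genes kept their direction.
In control cells 15 of the 36 genes were higher at 24 h than at 6 h and 2 lower, where 3.1% of all genes were called higher and 1.67% lower. Without scaling 11 were higher and 2 lower, against 2.37% in each direction. Glb1 rose by 0.45 ± 0.064 (adjusted p = 0.000172), Gusb by 0.35 and Laptm5 by 0.34, while Ctsl fell from 378, 393 and 377 to 246, 241 and 250.3 scaled FPKM (-0.64 ± 0.047, adjusted p = 1.69e-07) and Atp6v0d2 moved by -0.54. Tmppe on the same strand overlaps Glb1 and reached 10.1 FPKM at most. The count of higher genes was 9 without 24 h control replicate 2, and that of lower genes was 1 without 24 h control replicate 1, where Atp6v0d2 stood at -0.48 (adjusted p = 0.0565). These times share no library, and each time was a table of its own.

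**Figure D4:**
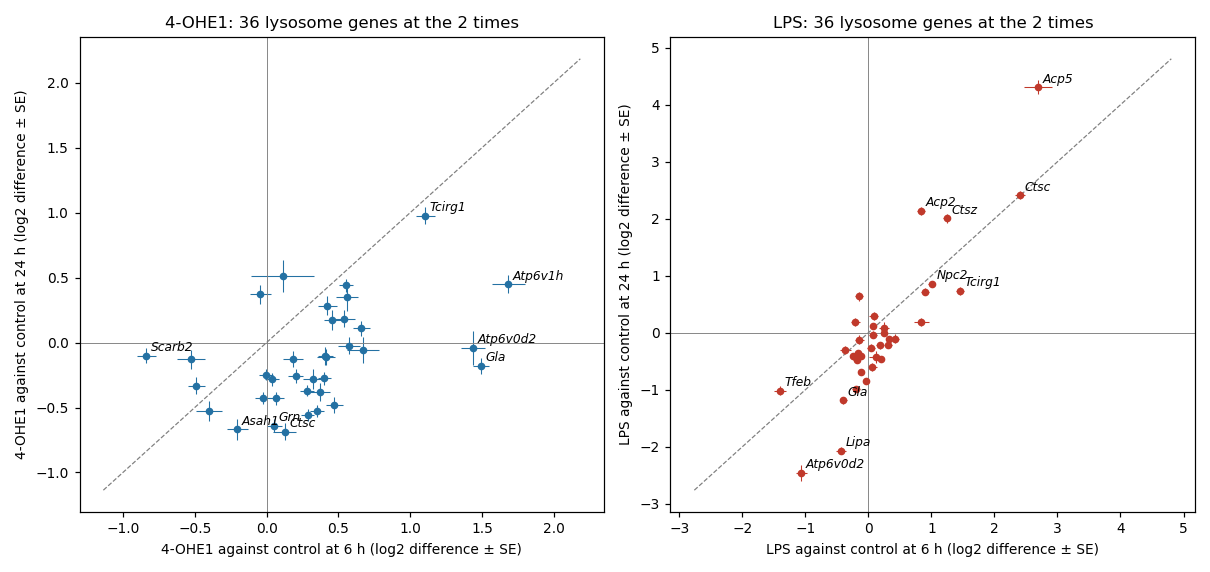
Log2 differences from control at 6 h (x axis) and 24 h (y axis) of the 36 lysosome genes for 4-OHE1 (left) and LPS (right), with bars of ± 1 SE and a dashed line of equal differences. Most points of the 4-OHE1 panel lie below the line, with Gla at 1.49 and -0.18, and Acp5 lies at 2.69 and 4.31 in the LPS panel.

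In LPS-treated cells the addition of 4-OHE1 lowered Ctsc, Acp5 and Acp2 and raised Gla, Atp6v0d2 and Lipa. This comparison shares the LPS libraries with LPS against control. Against LPS alone, the combination at 6 h had 21 of the 36 genes higher and 8 lower, with a median log2 difference of 0.32, where 32.4% of all genes were higher and 34.6% lower. Without scaling 26 were higher and 5 lower, against 42.7% and 25.3%. At 24 h 14 were higher and 14 lower, with a median of -0.025, against 24.1% and 25.2%, and without scaling 18 higher and 10 lower, against 39.5% and 14.9%. Gla, Atp6v0d2 and Lipa were among the genes with the largest rises at both times, and Ctsc, Acp5 and Acp2 had the 3 largest falls at both times.
The interaction, which compares the 4-OHE1 difference with and without LPS, was higher for 8 and lower for 9 of the 36 genes at 6 h, against 25% and 28.7% of all genes. These 6 h counts were near the shares of all genes. Without scaling it was higher for 25 and lower for 5, against 45.5% and 15.2%. At 24 h it was higher for 14 and lower for 9, against 21.2% and 22%, and without scaling higher for 17 and lower for 6, against 27.6% and 15.7%. Ctsc and Acp5 had the most negative values, -2.18 ± 0.11 (adjusted p = 1.08e-08) and -1.88 ± 0.31 (adjusted p = 0.000264) at 6 h, and -2.39 ± 0.096 (adjusted p = 7.53e-09) and -3.38 ± 0.17 (adjusted p = 2.89e-08) at 24 h. Tcirg1 (-1.04) and Tfe3 (-1.03) at 6 h were genes that each agent alone raised and the combination raised by less than the sum on the log2 scale. For Atp6v0d2 the interaction was not called at 6 h (0.11, adjusted p = 0.481), although without scaling it was (0.50, adjusted p = 0.00173), and at 24 h it was 1.85 ± 0.19 (adjusted p = 6.20e-06).

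**Figure D5:**
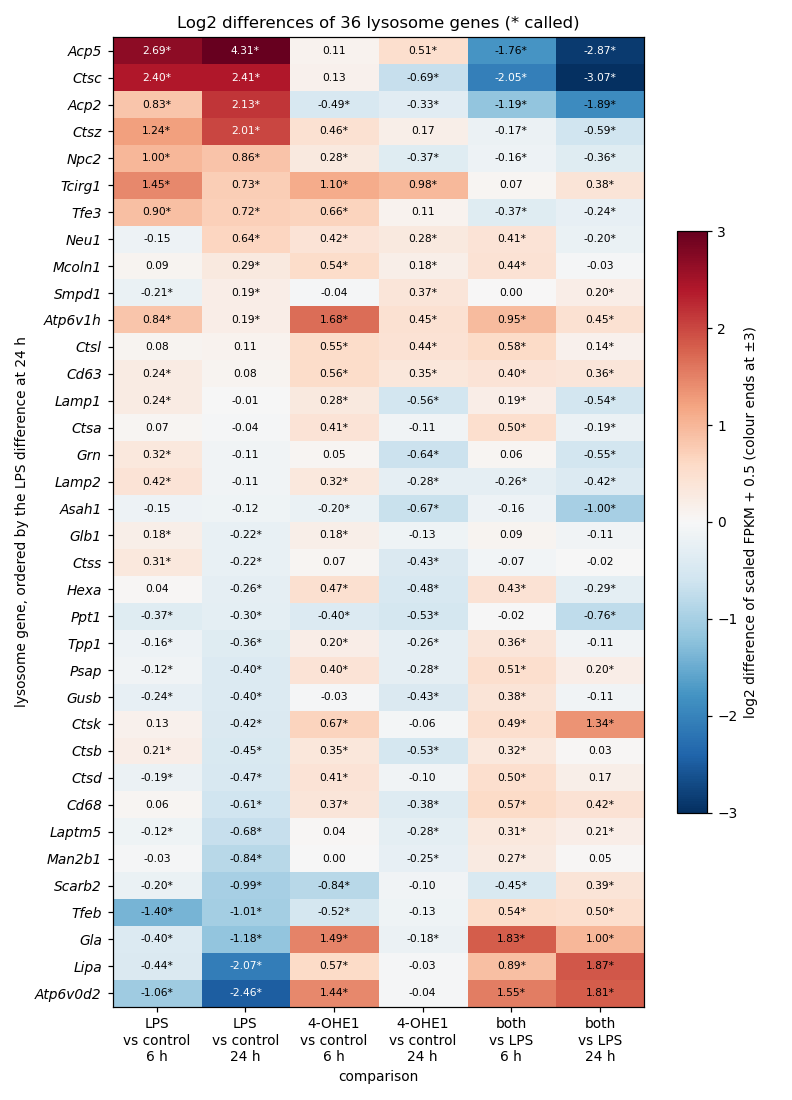
Log2 differences of scaled FPKM + 0.5 of the 36 lysosome genes (rows) in 6 comparisons (columns), red for higher and blue for lower, with asterisks at an adjusted p under 0.05. Acp5, Ctsc and Acp2 are red under LPS and blue for LPS plus 4-OHE1 against LPS, and Lipa and Atp6v0d2 are the reverse.

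All 7 genes with the E-box in their window rose with 4-OHE1 at 6 h, with a median log2 difference of 0.41, although without scaling Glb1 stood at -0.0077 and Lamp1 at 0.092, and neither was called. Of the 25 genes whose window held no E-box, 13 rose and 4 fell, with a median of 0.20, and of all genes tested 29.3% rose and 31.1% fell. These letters were not tested as a cause. Atp6v1h and Atp6v0d2 had no window to search. Pltp on the opposite strand overlaps Ctsa and reached 159 FPKM at most.

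Some of the genes are also known from osteoclasts, the bone-resorbing relatives of macrophages, among them Acp5, Ctsk, Atp6v0d2 and Tcirg1. Of 8 osteoclast markers outside the set, 6 reached 1 FPKM in some library, and Calcr and Oscar stayed at or near 0 (at most 0.195 and 0.174 FPKM). The summed markers were 57.6–60.2 FPKM in control, 30.1–33.0 FPKM with LPS, 31.1–32.9 FPKM with 4-OHE1 and 19.9–21.9 FPKM with both at 6 h. They were 51.8–52.8, 64.4–65.1, 46.2–50.2 and 36.1–42.0 FPKM in the same order at 24 h, and the LPS group was thus below control at 6 h and above it at 24 h. With 4-OHE1 at 6 h the sum was lower than in control, where Atp6v0d2, Ctsk and Tcirg1 had risen, but the markers differed in direction. Tnfrsf11a (28.8–31.5 FPKM in control and 6.68–7.39 FPKM with 4-OHE1) and Nfatc1 (14.3–16.1 and 6.60–7.25 FPKM) were lower. Itgb3 was higher (4.94–5.64 and 7.96–9.06 FPKM), and Dcstamp overlapped (6.95–7.84 and 7.82–10.2 FPKM). The other markers stayed under 1 FPKM in these groups. At 24 h Mmp9 alone was 37.1–39.9 FPKM with LPS. Itgb3 and Dcstamp were lower with LPS at 24 h, at 0.14–0.355 and 0.537–1.01 FPKM, than in control, at 7.62–7.73 and 4.2–5.37 FPKM, as Atp6v0d2 was, while Acp5 was higher. Their part in these results was not tested.

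The wider pathway lists were read against the shares of all genes called with 4-OHE1, which were 29.3% higher and 31.1% lower at 6 h (20.9% and 44% without scaling) and 25.5% and 26.7% at 24 h (29.9% and 23.1% without scaling). Of 17 autophagy genes, 14 were higher and 1 lower with 4-OHE1 at 6 h (10 and 3 without scaling), led by Sqstm1, the p62 cargo receptor, at a log2 difference of 3.54 and Gabarapl1, which coats autophagosomes, at 2.44, and 8 were higher and 1 lower at 24 h. Of 15 other lysosomal membrane genes, 11 were higher and 2 lower with 4-OHE1 at 6 h (8 and 3 without scaling), led by Ctns, the cystine exporter, at 1.69, and LPS raised Slc15a3, a peptide and histidine transporter, by 4.55 at 6 h. Of 28 other hydrolases, 12 were higher and 8 lower with 4-OHE1 at 6 h (7 and 11 without scaling), where the share lower at 6 h and both unscaled shares were near those of all genes, and 5 higher and 15 lower at 24 h (6 and 14 without scaling), where Arsb, which removes sulfate from dermatan sulfate, stood at -1.76.
Of 17 genes of the nutrient-sensing arm that controls TFEB, 6 were higher and 6 lower with LPS at 6 h, near the shares of all genes (36.2% and 35.2%). Without scaling it was 1 and 14, against 16.1% and 68.1%. Mitf, a relative of TFEB, rose by 2.53, and Rragd, a GTPase that recruits mTORC1 to the lysosome, moved by -2.22 at 6 h and -2.29 at 24 h. Flcn, which acts on that GTPase, rose with 4-OHE1 at 6 h by 1.70. Of the 6 genes of mannose 6-phosphate sorting, which sends hydrolases to the lysosome, LPS raised 1 and lowered 2 at 6 h. At 24 h it raised 1 and lowered 4, against 35% and 33.8% of all genes. Without scaling it was 1 and 5 at each time, against 19.9% and 53.5% of all genes at 24 h. The gene raised was M6pr (1.34 at 6 h and 1.43 at 24 h), and Sort1 moved by -0.85 and -1.14. Gnptab, which makes the tag, moved with 4-OHE1 by -0.59 and -1.18. Of the 7 listed cystatins, inhibitors of cysteine cathepsins, 3 passed the filter of 1 FPKM at 6 h and 4 at 24 h. All of these were called higher with LPS, with Cst7 at 3.24 and 2.56. Without scaling 1 was higher and 1 lower at 6 h, and 3 were higher and 0 lower at 24 h. Stfa3 passed at 24 h only, where its LPS difference was 3.63. A gene low in control can pass through its LPS libraries alone, and for such a gene a rise follows from the filter.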

How the data were processed

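mRNA of 24 macrophage libraries, 3 per group, was sequenced. The submitters' processing notes name mouse build mm10 and the tools STAR, HOMER, DESeq2 and edgeR. Versions and the strand setting of the counting are not given in the sources used here. The deposited FPKM, per the file headers, came from HOMER, which counted exon reads and kept 1 transcript for each gene, in 1 table per time. The authors' deposited comparison tables cover 4 comparisons with a log2 fold change and an adjusted p-value per gene, per the file headers, and served as an alternative. Their 24 per-sample columns were not used.

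FPKM values were whole numbers of reads, within 0.1 read, for 100% of the values checked, and depth (8.13e6 to 13.34e6 reads) came from the headers or, for LPS plus 4-OHE1, from the value of 1 read. A gene of 2 kb with 1 read stood at 0.0375 to 0.0615 FPKM. No 2 replicates were alike within counting noise (a chi-square of 1.44 to 15.8 per degree of freedom), so each library counted once.

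FPKM was divided by median-of-ratios factors over 11096 genes. limma 3.58.1 (R 4.3.3) tested log2(scaled FPKM + 0.5) with an intensity trend in the variance, over genes that reached 1 FPKM in at least 3 of the libraries fitted. The pseudocount understates the change of low genes. The 12 libraries of a time shared a fit, and differences between times came from all 24. The step was tested on simulated data. A raw-count test had been foreseen for the case that the tables held counts, which they do not.

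The members and lists were chosen with earlier results of these data known. Any of the 36 genes could be named. Statistics went to the 6 called genes with the largest rises and falls per comparison, with groups apart, to Tfeb, Tfe3 and Ctsd, and to up to 2 called genes of each other list. Neu1, Mcoln1, Cd68, Hexa and others were named with values beyond that rule, after their values were seen. Alternatives were 2 other pseudocounts, no filter, no scaling, a replicate block, voom on the recovered reads, each library left out and the authors' tables. Figures were drawn with matplotlib 3.10.9.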

Additional observations from a re-analysis of the deposited data

Results flagged for a closer look

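By limma's test of the interaction at an adjusted p under 0.05, the 4-OHE1 difference was higher with LPS for 8 and lower for 9 of the 36 genes at 6 h, where 25% and 28.7% of all genes were called, and for 14 and 9 at 24 h, against 21.2% and 22%. Both 6 h counts were near the shares of all genes. Values follow for the genes with the largest changes and for Tfeb, Tfe3 and Ctsd where called. In log2 values at 6 h it was more positive with LPS for Tfeb (1.07), Gusb (0.41), Scarb2 (0.38), Ppt1 (0.38), Gla (0.33) and Lipa (0.32). It was more negative for Ctsc (-2.18), Acp5 (-1.88), Tcirg1 (-1.04), Tfe3 (-1.03), Atp6v1h (-0.73) and Acp2 (-0.70). The calls for Ppt1 and Lipa at 6 h were lost in turn without control replicate 2 (adjusted p = 0.0533 and 0.0518), and also without some of the LPS or 4-OHE1 libraries, and Atp6v1h was not called without scaling (-0.33, adjusted p = 0.065). At 24 h it was more positive for Lipa (1.89), Atp6v0d2 (1.85), Ctsk (1.40), Gla (1.19), Cd68 (0.81), Tfeb (0.63) and Ctsd (0.27). It was more negative for Acp5 (-3.38), Ctsc (-2.39), Acp2 (-1.56), Ctsz (-0.76), Tcirg1 (-0.60), Neu1 (-0.48) and Tfe3 (-0.35). The Ctsd call at 24 h was lost without any of 7 libraries, for example 24 h control replicate 3 (0.24, adjusted p = 0.0804), and that of Tfe3 was lost without scaling (-0.21, adjusted p = 0.0553).

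The effects of the agents also differed between the times. The LPS difference was more positive at 24 h than at 6 h for Acp5 (1.61), Acp2 (1.30), Neu1 (0.79), Ctsz (0.77), Smpd1 (0.40) and Tfeb (0.39). It was more negative for Lipa (-1.63), Atp6v0d2 (-1.40), Man2b1 (-0.81), Scarb2 (-0.79), Gla (-0.78), Tcirg1 (-0.72) and Ctsd (-0.28). Without scaling Ctsd stood at 0.047 there. The 4-OHE1 difference was more positive at 24 h for Scarb2 (0.73), Smpd1 (0.41) and Tfeb (0.39). It was more negative for Gla (-1.67), Atp6v0d2 (-1.48), Atp6v1h (-1.23), Hexa (-0.95), Ctsb (-0.88), Lamp1 (-0.84), Tfe3 (-0.55) and Ctsd (-0.51).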

How the results depend on the processing

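Calls were made by limma at an adjusted p under 0.05. Leaving the FPKM unscaled moved 8 counts of called lysosome genes by over 1.5 times. With LPS at 6 h 6 were then higher and 28 lower, with 4-OHE1 at 6 h 10 lower, with LPS plus 4-OHE1 against LPS at 6 h 5 lower, in the 6 h interaction 25 higher and 5 lower, and for the LPS difference at 24 h against 6 h 13 higher and 11 lower. Ctsd, in the last of these, went from -0.28 to 0.047 (adjusted p = 0.673). Pseudocounts of 0.1 and 1, no filter, voom, and the authors' tables where they apply kept every count within 1.5 times. The authors' deposited tables gave 15 higher and 12 lower for LPS at 6 h, 23 and 5 for 4-OHE1 at 6 h, 10 and 18 for LPS at 24 h and 7 and 18 for 4-OHE1 at 24 h. Without a filter 5 single calls were lost, 4 of them for Ctsd.

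With each library left out in turn, the genes higher and lower numbered 13–15 and 8–14 for LPS and 22–23 and 4–5 for 4-OHE1 at 6 h, 21–22 and 6–8 for the combination against LPS at 6 h, and 6–9 and 9–10 for the 6 h interaction. At 24 h they were 9–11 and 18–20 for LPS, 6–9 and 17–19 for 4-OHE1, 11–15 and 12–16 for the combination and 13–15 and 8–10 for the interaction. For control at 24 h against 6 h they were 9–16 and 1–2, with 9 higher without 24 h control replicate 2 and 1 lower without 24 h control replicate 1, for the change of the LPS difference 6–7 and 19–22, and for that of 4-OHE1 3 and 25–26. Same-numbered libraries deviated together with correlations of -0.14 to 0.078 at 6 h and -0.094 to 0.28 at 24 h. Differently numbered libraries had -0.15 to 0.205 and -0.32 to 0.11. The highest at 24 h were LPS with 4-OHE1, at 0.274 for replicates 2 and 0.275 for replicates 3. These values do not settle whether the numbers pair the 24 h libraries. The replicate block kept every count within 1.5 times (15 higher and 12 lower for LPS at 6 h). Depth limits Acp5 most, with 14 to 30 reads in the 6 h control libraries.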
